A study of Mus musculus with 12 samples.

Results

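Mitochondrially encoded transcripts are the RNAs read from the mitochondrial genome itself. They were taken as all genes whose symbol starts with mt-, which gave 37 of the 55401 genes in the count table. All 37 lie on the mitochondrial chromosome of GRCm38, and they comprise 13 protein genes, 2 ribosomal RNA (rRNA) genes and 22 transfer RNA (tRNA) genes. The libraries hold poly(A)-selected RNA of prefrontal cortex. The mice were C57BL/6J males, 14 weeks old, and had received virus in the dorsomedial prefrontal cortex of both hemispheres 4 weeks earlier. There were 12 libraries in 3 groups of 4. The control group received pAAV.1-CAG-GFP, an adeno-associated virus that makes green fluorescent protein (GFP) from the CAG promoter. The overexpression group received pAAV-CAG-GFP-P2A-Ttr-WPRE.bgH, which makes GFP and transthyretin (Ttr), a carrier of thyroid hormone and retinol. The knockdown group received pAAV-U6-Ttr-shRNA-2, whose further elements are CAG-GFP and WPRE3, and which makes a hairpin RNA against Ttr from the U6 promoter beside GFP. All mice thus carried a GFP virus and there was no uninjected group. The control vector came from Addgene and both Ttr vectors from the Charité vector core, so in the comparisons with the control, vector source and Ttr dose cannot be told apart. The labels do not say that each library is a mouse of its own. P-values thus cover only the scatter among samples within groups, which may in part be technical. In the gene tests with edgeR that scatter was pooled over all 3 groups. The comparisons ask whether the level or the make-up of mitochondrial RNA differed between the viruses.

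The mitochondrial genome is transcribed from both strands as long RNAs that are cut, largely at the tRNAs that lie between the other genes, into separate messenger, ribosomal and transfer RNAs. Its protein genes encode core subunits of respiratory complexes I, III and IV and of the ATP synthase (complex V), and its rRNAs and tRNAs serve the ribosomes that translate them inside the organelle. Neurons depend heavily on this system for ATP. Most of the messenger RNAs carry short poly(A) tails, whereas mature tRNAs do not. The tRNAs are also shorter than the fragments that standard mRNA kits retain.

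Total counts ranged from 19879629 to 37166146 per library. Ttr itself had 2121 to 20940 counts in the overexpression libraries, 14 to 200 in the controls and 3 to 47 in the knockdown libraries, so its count checked the overexpression label but not the knockdown label, whose range overlapped the controls. The 7 markers of excitatory cortical neurons summed to 1863 to 2355 CPM (counts scaled to a common library size with edgeR's TMM factors). Other tissue varied between dissections: the 8 markers of striatal projection neurons summed to 174 to 1160 CPM and the 5 markers of oligodendrocytes to 2023 to 8312 CPM. Knockdown replicate 4 stood apart for mitochondrial RNA, with the highest CPM of all libraries for 15 of the 24 mitochondrial genes that could be tested. Control replicate 4 had the lowest CPM for 10 of the 24. The results below that these libraries move most are also given without them.

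Mitochondrial RNA made up 4.59% to 7.17% of all counts. Its share was 5.33% ± 0.606 (SD, n = 4) in the control libraries, 5.40% ± 0.364 (SD, n = 4) with Ttr overexpression and 5.91% ± 0.879 (SD, n = 4) with the Ttr hairpin. In control replicates 1 to 4 the share was 5.85%, 5.08%, 5.80% and 4.59% of counts. In overexpression replicates 1 to 4 it was 5.16%, 5.22%, 5.94% and 5.28%. In knockdown replicates 1 to 4 it was 5.20%, 5.82%, 5.44% and 7.17%. The 3 groups overlapped, and the knockdown group reached above the others through replicate 4 alone. Without that library the knockdown mean was 5.49%, within the range of the other groups.

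Protein genes took most of this RNA, with 4.44% ± 0.528 of counts in the controls, 4.51% ± 0.288 with overexpression and 4.90% ± 0.764 with the hairpin (SD, n = 4 each). The 2 rRNAs took 0.889% ± 0.0922, 0.894% ± 0.0888 and 1.01% ± 0.115 of counts in the same order. The 22 tRNAs together took 0.00292% ± 0.000381, 0.00282% ± 0.000306 and 0.00317% ± 0.000662. The protein share was several times the rRNA share and the tRNA share was far below both, while the groups overlapped within every class. These are shares of poly(A)-selected RNA and not of all mitochondrial RNA in the tissue. How far the selection set the shares of the classes was not tested. Measured as deposited TPM, which divides by gene length, all mitochondrial genes held 9.14% to 13.7% of each library.

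**Figure D1:**
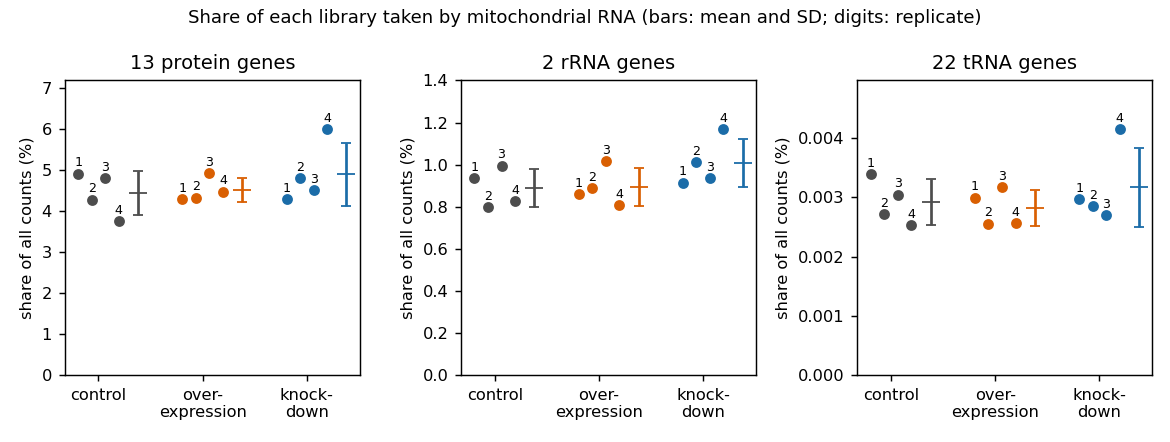
Share of all counts in each library, in percent, taken by the 13 protein genes, the 2 rRNA genes and the 22 tRNA genes. Points are single libraries with their replicate number, and bars give the mean and SD of 4 libraries. Knockdown replicate 4 is highest in all 3 classes, at 6.00%, 1.17% and 0.00414%, and the groups overlap in each.

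Knockdown replicate 4, the library with the most mitochondrial RNA, also had the fewest counts (19879629), the lowest oligodendrocyte sum (2023 CPM) and the lowest striatal sum (174 CPM). Its astrocyte sum was the highest (1285 CPM over 5 markers). Control replicate 4, the library with the least, had an oligodendrocyte sum of 6153 CPM and a striatal sum of 888 CPM, against 209 to 500 CPM in the other controls, and the lowest astrocyte sum (858 CPM). Not all libraries between them followed these pairings. Overexpression replicate 4 had the highest striatal sum (1160 CPM) and an astrocyte sum of 1263 CPM at a mitochondrial share of 5.28%. Overexpression replicate 2 had 184 and 881 CPM for the same lists at 5.22%. Control replicate 2 had the highest oligodendrocyte sum (8312 CPM) at 5.08%, against 4.59% in control replicate 4. By group, the oligodendrocyte markers summed to 3367 to 8312 CPM in controls, 3343 to 4871 with overexpression and 2023 to 4854 with the hairpin. The striatal markers summed to 209 to 888, 184 to 1160 and 174 to 1002 CPM in the same order. The astrocyte markers summed to 858 to 1106, 881 to 1263 and 975 to 1285 CPM. The 10 mural and meningeal markers summed to 156 to 199 CPM in controls, 215 to 307 with overexpression and 180 to 204 with the hairpin, so the overexpression range lay above the control range. The 5 endothelial markers summed to 126 to 139.8 CPM in controls, 137 to 175 with overexpression and 140.3 to 168 with the hairpin, so the knockdown range lay just above the control range. All markers of these 5 lists were detected at levels that could be tested. Their part in the mitochondrial level was not tested. In bulk tissue, fewer cells of a type and less RNA per cell cannot be told apart.

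Levels per length, as deposited TPM averaged over the 12 libraries, fell into an abundant and a scarce set of genes. mt-Co1, the catalytic core of complex IV, had 25114 ± 2653 TPM (SD, n = 12) and ranked 2 among all genes. mt-Cytb, the only complex III subunit encoded here, had 20308 ± 2050 TPM. The complex I subunits mt-Nd1, mt-Nd2, mt-Nd5 and mt-Nd4 had mean levels of 18065, 10833, 8029 and 7432 TPM. The rRNAs of the large and the small mitochondrial ribosomal subunit, mt-Rnr2 and mt-Rnr1, had 9473 and 8884 TPM. These 8 genes held ranks 2 to 9 of the whole table. Between neighbours in the order of mean TPM the ranges over libraries overlapped, except between mt-Nd1 and mt-Nd2. Within single libraries the order was mt-Co1, mt-Cytb, mt-Nd1, mt-Nd2, mt-Rnr2, mt-Rnr1, mt-Nd5 and mt-Nd4 in all 12, except that mt-Rnr1 exceeded mt-Nd5 in 11 of 12. mt-Rnr2 had 1.04 to 1.13 times the TPM of mt-Rnr1.

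The other 7 protein genes were far lower. mt-Nd6, the only protein gene on the other strand, had 507 ± 82.8 TPM. How well poly(A) selection captured mt-Nd6 beside the other messenger RNAs was not tested. The ATP synthase subunit mt-Atp6 had 326 TPM, and the complex IV subunits mt-Co2 and mt-Co3 had 276 and 219 TPM. The complex I subunits mt-Nd4l and mt-Nd3 had 86.7 and 65.1 TPM, and the ATP synthase subunit mt-Atp8 had 44.2 TPM. Within single libraries the TPM of mt-Co1 was 75.2 to 107 times that of mt-Co2, a subunit of the same complex, and 3.16 to 3.49 times that of mt-Nd4. The TPM of mt-Nd4 was 67.8 to 110 times that of its neighbour mt-Nd4l.

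**Figure D2:**
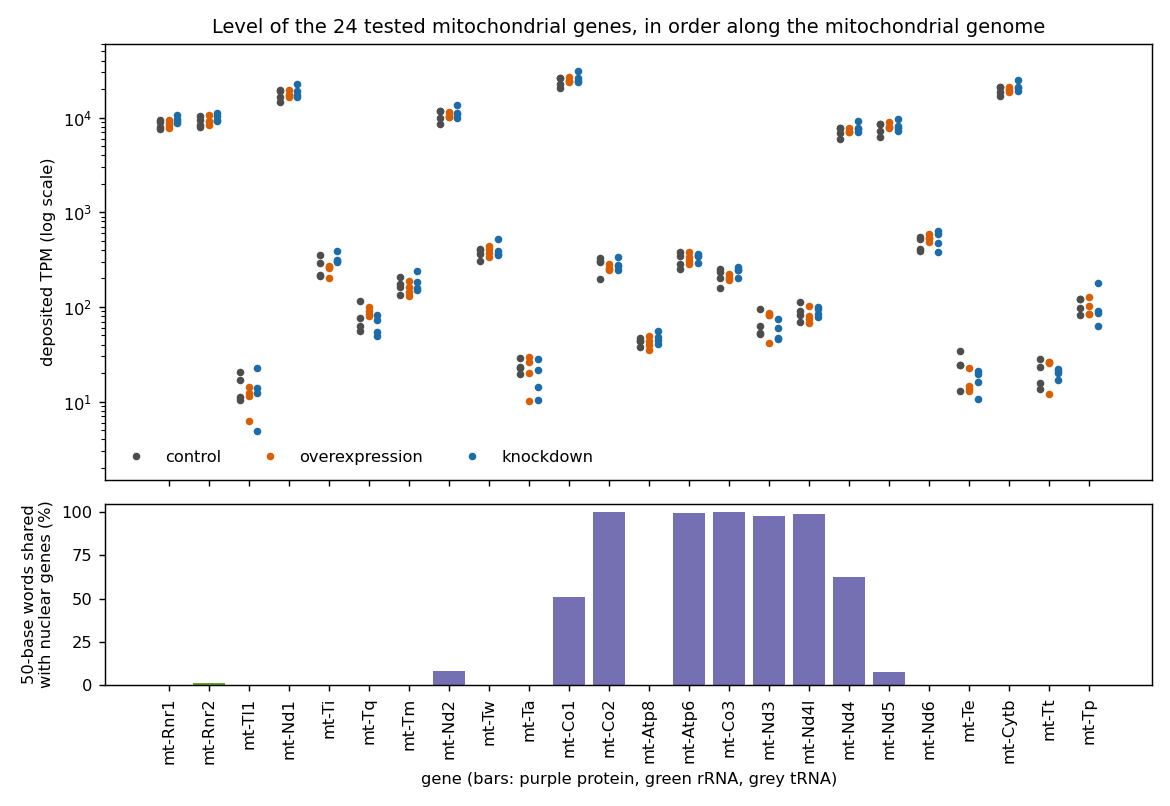
Upper panel, deposited TPM (log axis) of the 24 mitochondrial genes with enough counts to test, in order along the mitochondrial genome, with a point for each of the 12 libraries. Lower panel, the percentage of each gene's 50-base words that also occur in an annotated nuclear transcript. The 6 genes from mt-Co2 to mt-Nd4l have means of 44.2 to 326 TPM between neighbours at 25114 (mt-Co1) and 7432 (mt-Nd4), and 5 of these 6 share 98.0% to 100% of their words.

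The 6 genes mt-Co2, mt-Atp8, mt-Atp6, mt-Co3, mt-Nd3 and mt-Nd4l lie next to each other at chrM:7013-10173. They supplied only 0.504% to 0.592% of the mitochondrial protein counts from 26.3% of the coding length. 5 of them have near-identical copies in the nuclear genome, in a run of 7 annotated pseudogenes on the minus strand of chromosome 1 (chr1:24611535-24616197, GRCm38) that keeps the order of the mitochondrial genes. Over their aligned lengths the copies of mt-Co2 (Gm28661), mt-Atp6 (Gm10925), mt-Co3 (Gm28437), mt-Nd4l (Gm10222) and, in part, mt-Nd4 (Gm28439) were 100% identical to the mitochondrial gene. The copy of mt-Nd3 (Gm28438) differed at a single base of 345. The start of mt-Co2 and of its copy is shown because a read from it has no base that tells the locations apart, and the stretches with the substitutions T3C (mt-Nd3) and A1066T (mt-Co1) because these were the differences found along the run. Positions count from 1 at the first base of the mitochondrial gene, each sequence is written 5′ to 3′ on the gene's strand from GENCODE vM21 transcripts, and capitals mark the base that differs.
mt-Co2, chrM:7013-7072, plus strand: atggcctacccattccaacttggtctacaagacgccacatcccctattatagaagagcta
Gm28661, chr1:24615506-24615565, minus strand: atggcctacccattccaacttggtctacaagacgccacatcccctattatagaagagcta
mt-Nd3, chrM:9459-9486, plus strand: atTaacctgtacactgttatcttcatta
Gm28438, chr1:24613092-24613119, minus strand: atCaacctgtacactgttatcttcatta
mt-Co1, chrM:6390-6418, plus strand: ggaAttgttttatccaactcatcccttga
Gm29216, chr1:24616160-24616188, minus strand: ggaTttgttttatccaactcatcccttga

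Of all 50-base words, 100% of those of mt-Co2, 99.9% of mt-Co3, 99.5% of mt-Atp6, 98.8% of mt-Nd4l and 98.0% of mt-Nd3 occurred in another annotated transcript. The share was 62.2% in mt-Nd4 and 51.1% in mt-Co1, 8.19% in mt-Nd2, 7.61% in mt-Nd5 and 1.04% in mt-Rnr2. It was 0% in mt-Nd1, mt-Cytb, mt-Nd6, mt-Rnr1 and mt-Atp8. 5 of the 7 scarce protein genes thus consisted almost wholly of shared words, but mt-Nd6 and mt-Atp8 were scarce with no shared word among annotated transcripts. The mt-Atp8 stretch corresponds to a 233-base gap between the annotated copies Gm10925 and Gm28661, the same length as in the mitochondrial genome, and its chromosome 1 sequence was not used here. The 7 chromosome 1 pseudogenes had 2448 to 5050 counts in all per library, or 0.0106% to 0.0158% of counts. How reads with more than a single placement were counted is not given in the sources used here, so the levels of these 5 genes, and those of mt-Nd4 and mt-Co1 in part, are uncertain. The part of shared sequence in the low counts was not tested. The mitochondrial genes also overlap one another, mt-Atp8 with mt-Atp6 by 43 bases and mt-Nd5 with mt-Nd6 on the opposite strand by 14. Whether reads there were counted for either gene or for neither is not known. The strand setting of the counting is not given in the sources used here. The mt-Nd5 and mt-Nd6 ends (chrM:13537-13580, plus strand, capitals for the bases in both genes) are shown because mt-Nd6 was scarce outside the copied stretch: mt-Cytb had 34.8 to 54.3 times its TPM.
mt-Nd5 end: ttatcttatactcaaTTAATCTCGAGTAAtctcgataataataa

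The make-up of the mitochondrial protein RNA was steadier than its amount. mt-Co1 supplied 32.6% to 33.8% of the mitochondrial protein counts in the 12 libraries, mt-Cytb 19.4% to 20.7%, mt-Nd1 14.4% to 15.2%, mt-Nd5 12.1% to 13.1%, mt-Nd2 9.29% to 10.0% and mt-Nd4 8.61% to 9.19%. These 6 genes gave 99.2% to 99.3% of the protein counts in every library. For mt-Co1 the SD over libraries was 0.163 for log2 CPM, here per total count without TMM factors, and 0.0146 for the log2 share within protein counts. For mt-Cytb the same SDs were 0.156 and 0.0282, and for mt-Nd5 0.171 and 0.0429. Each of these genes is itself part of the total behind its share, which holds down the SD of the share, most for mt-Co1. The TPM ratio of mt-Co1 to mt-Nd4, which has no such part, was 3.16 to 3.49 in single libraries. The abundant genes thus varied together between libraries, in nearly the same proportion. The shares of the scarce genes were more variable. For mt-Nd6, mt-Co2, mt-Co3 and mt-Atp6 the share still varied less than the level, with SDs of 0.250 and 0.162, 0.222 and 0.158, 0.211 and 0.143, and 0.192 and 0.104. For mt-Nd3, mt-Nd4l and mt-Atp8 both varied about alike, with SDs of 0.402 and 0.373, 0.236 and 0.235, and 0.191 and 0.213, the last on a mean of 95.1 counts per library.

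**Figure D3:**
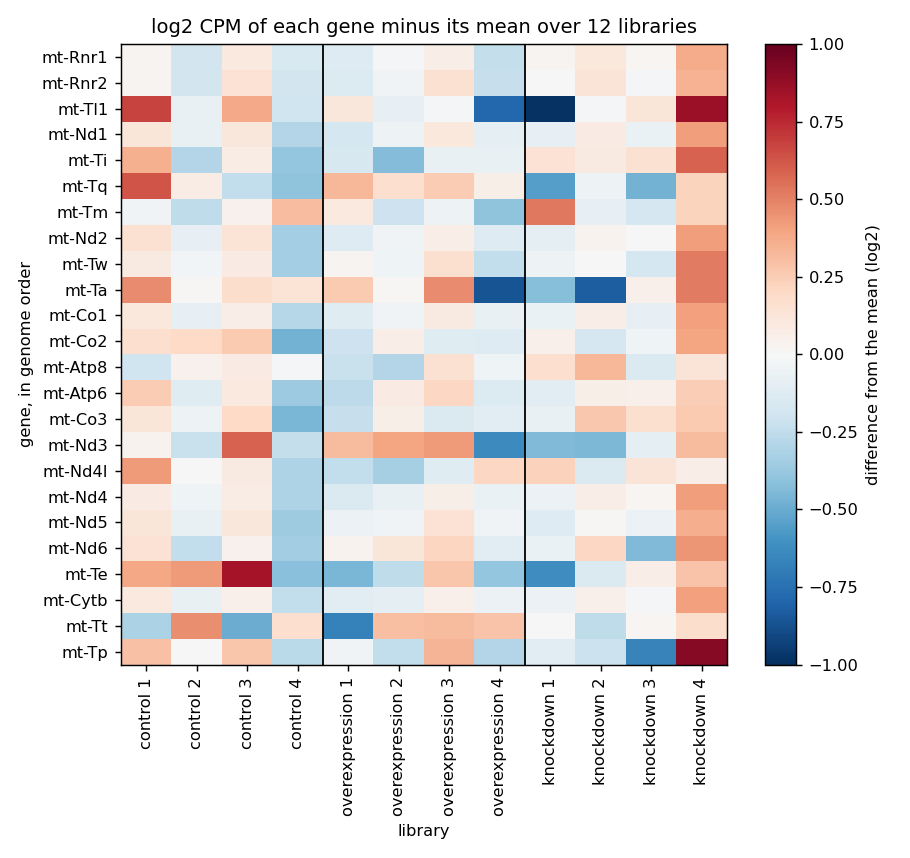
log2 CPM of each of the 24 tested genes minus its mean over the 12 libraries, genes in genome order and libraries by group. The column of knockdown replicate 4 is high across nearly all genes and that of control replicate 4 low across most, while tRNAs and mt-Nd3 vary more between libraries than the abundant genes.

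Ttr overexpression was compared with the control virus first. Of the 37 genes, 24 passed the filter on low counts: all 13 protein genes, both rRNAs and 9 tRNAs. With edgeR's quasi-likelihood test and Benjamini-Hochberg adjustment over 18289 genes, 0 of the 24 changed at an adjusted p under 0.05, against 0.00547% of all genes tested. DESeq2 and limma-voom also called 0 of the 24. At an unadjusted p under 0.05 edgeR had 0 of 24, against 6.26% of all genes, and 0 of 24 had libraries that did not overlap between the groups, against 2.72%. The median log2 difference was -0.02 for protein genes, -0.02 for rRNAs and -0.15 for tRNAs, beside 0.00 for all genes tested. With each library left out in turn they ranged from -0.09 (without control replicate 4) to 0.03 (without control replicate 1), from -0.09 (without overexpression replicate 3) to 0.04 (without control replicate 3) and from -0.22 (without control replicate 2) to -0.05 (without control replicate 1). mt-Co1 had 16467, 14460, 16071 and 12574 CPM in control replicates 1 to 4, and with overexpression the replicates gave 14073, 14978, 16293 and 14554 CPM. The overexpression values lay inside the control range, with a log2 difference of 0.01 ± 0.12 (SE). For the 8 abundant genes the 95% intervals of the log2 difference reached from -0.30 to 0.30, which is 0.811-fold to 1.23-fold.

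The smallest p-value in that comparison belonged to mt-Te, the tRNA for glutamate, which lies beside mt-Nd6 on the same strand. Control replicates 1 to 4 gave 0.663, 0.680, 0.928 and 0.347 CPM, and those with overexpression gave 0.336, 0.397, 0.609 and 0.355 CPM. The groups overlapped through control replicate 4, and the log2 difference was -0.65 ± 0.32 (SE; edgeR unadjusted p = 0.0587, adjusted p = 0.807). It was -0.41 without control replicate 3, -0.85 without control replicate 4 (edgeR unadjusted p = 0.0125, adjusted p = 1.00) and -0.88 without overexpression replicate 3. The next were mt-Nd4l, at -0.19 ± 0.15, and mt-Tl1, a leucine tRNA, at -0.45 ± 0.39 on the log2 scale. With libraries left out they ranged from -0.32 (without overexpression replicate 4) to -0.06 (without control replicate 1) and from -0.58 (without overexpression replicate 1) to -0.26 (without control replicate 1).

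In the knockdown libraries, compared with the control virus, 17 of the 24 genes had a higher mean and 7 a lower mean. Of all 18289 genes tested, 9477 were higher. At an adjusted p under 0.05, 0 of the 24 passed, against 0.00547% of all genes. DESeq2 and limma-voom called 0 of the 24 as well. At an unadjusted p under 0.05 edgeR had 0 of 24, against 5.68%, and 0 of 24 did not overlap between groups, against 4.11%. The median log2 difference was 0.12 for protein genes, 0.17 for rRNAs and -0.02 for tRNAs, beside 0.00 for all genes. Without knockdown replicate 4 these medians were 0.01, 0.09 and -0.42, and 13 of 24 genes had a higher mean. Without control replicate 4 they were 0.04, 0.13 and -0.13. mt-Co1 had 14615, 16017, 14470 and 20361 CPM in knockdown replicates 1 to 4, and 3 of these 4 values lay inside the control range. Its log2 difference was 0.14 ± 0.12 (SE), and the 95% intervals of the 8 abundant genes reached from -0.17 to 0.40, or 0.892-fold to 1.32-fold.

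The rRNA mt-Rnr1 had the smallest p-value against the control. It had 3420, 2953, 3587 and 3013 CPM in control replicates 1 to 4 and 3412, 3594, 3396 and 4334 CPM in knockdown replicates 1 to 4. The groups overlapped, and the log2 difference was 0.18 ± 0.10 (SE; edgeR unadjusted p = 0.0803, adjusted p = 0.897), or 0.10 without knockdown replicate 4. mt-Ti, the isoleucine tRNA, differed by 0.29 ± 0.17 and mt-Te by -0.52 ± 0.32 on the log2 scale, and neither passed. mt-Ti differed by 0.16 without knockdown replicate 4, 0.19 without control replicate 4 and 0.44 without control replicate 1. mt-Te differed by -0.28 without control replicate 3.

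Both Ttr groups were then set against each other. Their comparisons with the control share the control libraries, so their values are given side by side and not as separate evidence. In the overexpression libraries 20 of the 24 genes had a lower mean than in the knockdown libraries, beside 9128 of the 18289 genes tested. Of the 24, 0 passed at an adjusted p under 0.05 in edgeR, against 0.00547% of all genes, or in DESeq2 or limma-voom. The median log2 difference was -0.16 for protein genes, -0.19 for rRNAs and -0.11 for tRNAs, beside 0.00 for all genes. Without knockdown replicate 4 the medians were -0.04, -0.11 and 0.06, and 15 of 24 genes had a lower mean. The 95% intervals of the 8 abundant genes reached from -0.42 to 0.21, or 0.745-fold to 1.15-fold. A set of 8 nuclear long noncoding RNAs, chosen to gauge RNA quality and nuclear share, went the other way between the groups, but not in every library. All 8 were higher with overexpression than with the hairpin, with a median log2 difference of 0.21. Their sums overlapped, at 3722 to 5205 CPM with overexpression and 2964 to 4179 CPM with the hairpin. Knockdown replicate 4, with the most mitochondrial RNA, had 4089 CPM, above overexpression replicates 3 (4023 CPM) and 4 (3722 CPM). Against the control the median log2 difference of the set was 0.13 with overexpression and -0.05 with the hairpin. The part of RNA quality was not tested.

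At an unadjusted p under 0.05, 2 of the 24 genes (8.33%) differed between the Ttr groups, against 5.1% of all genes tested, while DESeq2 gave 3 and limma-voom 2. In edgeR's CPM 1 of the 24 (4.17%) did not overlap, against 2.37%. Both genes were lower with overexpression, as were 2.32% of all genes at that p-value and 1.14% of all genes without overlap. For mt-Ti, overexpression replicates 1 to 4 gave 6.71, 5.53, 7.13 and 7.10 CPM, and knockdown replicates 1 to 4 gave 8.30, 7.98, 8.33 and 11.3 CPM. All 4 knockdown libraries lay above all 4 overexpression libraries, but the control values, 9.61, 6.12, 7.89 and 5.73 CPM, overlapped both ranges. The log2 difference was -0.44 ± 0.17 (SE; edgeR unadjusted p = 0.0203, adjusted p = 0.967), and -0.31 without knockdown replicate 4 (edgeR unadjusted p = 0.0760). For mt-Rnr1 the overexpression values were 3055, 3308, 3505 and 2837 CPM, overlapping the knockdown values above. Its log2 difference was -0.21 ± 0.10 (SE; edgeR unadjusted p = 0.0458, adjusted p = 0.967), and -0.13 without knockdown replicate 4 (edgeR unadjusted p = 0.172). The complex IV subunit mt-Co3 followed at -0.26 ± 0.12 (SE; edgeR unadjusted p = 0.0515), and its reads are of uncertain placement.

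**Figure D4:**
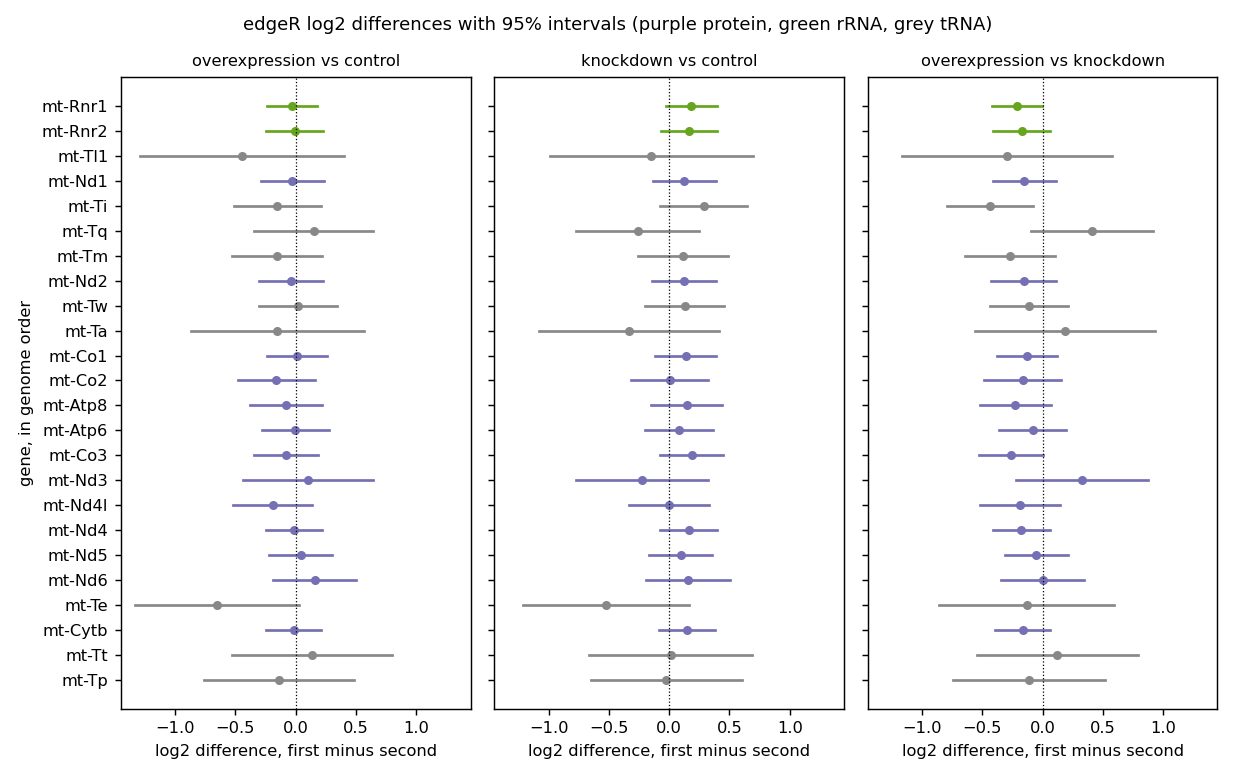
edgeR log2 differences of the 24 tested genes in the 3 comparisons, with 95% intervals as lines and genes in genome order. Intervals of the abundant genes span less than those of the tRNAs, and the intervals that leave out 0 are those of mt-Ti and mt-Rnr1 between overexpression and knockdown.

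tRNA genes held only 564 to 1131 counts per library. Of the 22, 17 had a count in at least 1 library. The tryptophan, isoleucine, methionine, proline and glutamine tRNAs (mt-Tw, mt-Ti, mt-Tm, mt-Tp and mt-Tq) gave 92.0% of all tRNA counts, with means of 389, 283, 170, 104 and 77.5 TPM. The glutamate, threonine, alanine and leucine tRNAs mt-Te, mt-Tt, mt-Ta and mt-Tl1 completed the 9 that could be tested. A further 8 (mt-Tv, mt-Tn, mt-Tc, mt-Ty, mt-Ts1, mt-Tg, mt-Tr and mt-Ts2) never exceeded 9 counts in a library. The phenylalanine, aspartate, lysine, histidine and second leucine tRNAs (mt-Tf, mt-Td, mt-Tk, mt-Th and mt-Tl2) were at 0 in all 12 libraries. At this depth that allows up to 0.0807 to 0.151 CPM of the total count in each, a limit of 3 counts that covers counting error only. mt-Td, mt-Tk, mt-Tg and mt-Tr lie within the span of the mitochondrial genes copied on chromosome 1. The chromosome 1 sequence between the annotated copies was not used here, and the treatment of reads with several placements is not given. For mt-Td and mt-Tk the limit thus does not cover reads left out for that reason. mt-Tw, the most abundant, had 305 to 410 TPM in the controls, 337 to 436 TPM with overexpression and 350 to 521 TPM with the hairpin. The sequences of mt-Tw and mt-Ti are shown beside that of mt-Tk, which lies between mt-Co2 and mt-Atp8 and had no count. Capitals mark bases that the annotation also gives to a neighbouring gene. Those at the starts of mt-Tw and mt-Ti lie in the ends of mt-Nd2 and mt-Nd1, and those at the end of mt-Ti lie in mt-Tq.
mt-Tw, chrM:4950-5016, plus strand: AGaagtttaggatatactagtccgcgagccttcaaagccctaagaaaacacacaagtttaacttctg
mt-Ti, chrM:3706-3774, plus strand: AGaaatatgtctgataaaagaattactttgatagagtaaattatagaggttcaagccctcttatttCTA
mt-Tk, chrM:7700-7764, plus strand: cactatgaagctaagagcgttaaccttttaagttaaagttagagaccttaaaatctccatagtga

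mt-Tw shares its first bases with mt-Nd2, and mt-Ti shares bases with mt-Nd1 at its start and with mt-Tq, on the opposite strand, at its end. mt-Tm ends where mt-Nd2 begins. Counts differed widely among tRNAs next to abundant transcripts. mt-Tw, mt-Ti and mt-Tm had means of 274, 204 and 123 counts per library. mt-Tl1, which ends where mt-Nd1 begins, had a mean of 10.5 counts, and mt-Tl2, which ends where mt-Nd5 begins, had 0. Whether the tRNA counts come from mature tRNA or from longer RNA was not tested, so the values are read as counts over these intervals.

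Ratios of neighbouring genes within a library need no scaling between libraries. They too count only RNA captured by poly(A) selection, whose effect on the ratios was not tested. mt-Rnr2 and mt-Nd1 lie on the same strand with only mt-Tl1 between them, and mt-Nd6 and mt-Cytb lie on opposite strands with only mt-Te between them. The log2 ratio of mt-Rnr2 to mt-Nd1 counts was -0.22 ± 0.10 in controls, -0.21 ± 0.09 with overexpression and -0.18 ± 0.06 with the hairpin (SD, n = 4 each), and in single libraries mt-Rnr2 had 0.789 to 0.933 counts for each count of mt-Nd1. The exact two-sided permutation p-values were 0.943 for overexpression against control, 0.514 for knockdown against control and 0.486 between the Ttr groups. The smallest p that 4 against 4 libraries allow is 0.0286.

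The log2 ratio of mt-Nd6 to mt-Cytb was -6.54 ± 0.10 in controls, -6.36 ± 0.12 with overexpression and -6.54 ± 0.25 with the hairpin (SD, n = 4 each). In control replicates 1 to 4 it was -6.43, -6.65, -6.49 and -6.58, and with Ttr overexpression it was -6.33, -6.26, -6.31 and -6.52. With the hairpin it was -6.48, -6.32, -6.90 and -6.45. Overexpression replicates 1 to 3 lay above every control library, and replicate 4 lay among them. The difference between overexpression and control was 0.18 (exact two-sided permutation p = 0.0857), that between knockdown and control was 0.00 (exact p = 1), and that between the Ttr groups was 0.18 (exact p = 0.286), or 0.06 without knockdown replicate 3. Adjusted over the 6 ratio tests, the smallest was 0.514, so none passed.

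**Figure D5:**
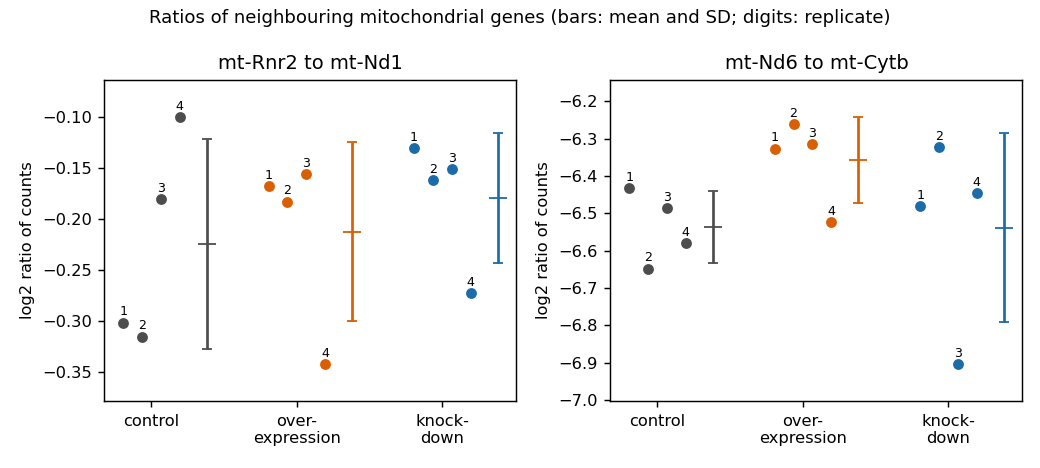
log2 ratio of counts of mt-Rnr2 to mt-Nd1 and of mt-Nd6 to mt-Cytb in each library, with replicate numbers and bars for the mean and SD of 4 libraries. The groups overlap in both ratios, and knockdown replicate 3 has the lowest mt-Nd6 to mt-Cytb ratio, at -6.90.

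Nuclear genes that act on mitochondrial RNA were read for the same comparisons. Of 13 factors of mitochondrial transcription and replication, 0 passed at an adjusted p under 0.05 in any comparison in edgeR, and 0 had an unadjusted p under 0.05, against 6.26% (overexpression against control), 5.68% (knockdown against control) and 5.1% (between the Ttr groups) of all genes. Their summed level was 214 to 217 CPM in controls, 212 to 222 with overexpression and 204 to 218 with the hairpin. The 3 smallest p-values per comparison belonged to Ssbp1, the single-stranded DNA binding protein, Mterf3 and Mterf4 with overexpression, and to Mterf3, Mterf4 and the transcription factor Tfb2m with the hairpin. Between the Ttr groups they belonged to Mterf3, Ssbp1 and the DNA polymerase Polg, with log2 differences of 0.16, 0.23 and 0.07.

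Of 27 factors of mitochondrial RNA processing and decay, 25 were matched by symbol and tested, and 0 passed at an adjusted p under 0.05. Prorp and Fastkd4 were not found under these symbols. At an unadjusted p under 0.05 there was 1 of 25 in each comparison with the hairpin group and 0 with overexpression against control, no larger a share than that of all genes. Lrpprc, which stabilises mitochondrial messenger RNA, had 60.9 ± 0.692 CPM with the hairpin against 65.8 ± 2.17 in controls (SD, n = 4), a log2 difference of -0.11 ± 0.05 (SE; edgeR unadjusted p = 0.0287, adjusted p = 0.843). Fastkd5, which is needed for processing of mitochondrial RNA, had 3.24 ± 0.432 CPM with overexpression against 4.08 ± 0.157 with the hairpin, a log2 difference of -0.33 ± 0.13 (SE; edgeR unadjusted p = 0.0253, adjusted p = 0.967). The others with the smallest p-values were Rexo2, Pnpt1 and Trmu with overexpression (-0.10, 0.18 and 0.11 on the log2 scale), Fastkd5 and Pnpt1 with the hairpin (0.28 and 0.19), and Mto1 and Nsun3 between the Ttr groups (0.12 and 0.17).

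Of 10 regulators of mitochondrial biogenesis, 0 passed at an adjusted p under 0.05. At an unadjusted p under 0.05 there were 2 of 10 with overexpression against control, beside 6.26% of all genes, 1 of 10 with the hairpin against control, beside 5.68%, and 0 of 10 between the Ttr groups, beside 5.1%. Nrf1, a transcription factor for nuclear genes of the respiratory chain, had 18.8 ± 0.771 CPM in controls, 16.9 ± 0.952 with overexpression and 16.5 ± 0.714 with the hairpin (SD, n = 4 each). Its log2 difference from control was -0.15 ± 0.06 with overexpression (edgeR unadjusted p = 0.0297, adjusted p = 0.776) and -0.19 ± 0.06 with the hairpin (unadjusted p = 0.0108, adjusted p = 0.753). Gabpa, a further such factor, differed by 0.17 ± 0.08 with overexpression (edgeR unadjusted p = 0.0496, adjusted p = 0.797). The others with the smallest p-values were Esrrg with overexpression (0.16), Pprc1 and Ppargc1b with the hairpin (0.12 and -0.16), and Esrrg, Ppargc1b and Gabpa between the Ttr groups (0.17, 0.14 and 0.08).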

How the data were processed

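The authors deposited whole-number counts per gene, TPM values and variance-stabilised values on a log2 scale for 12 poly(A)-selected libraries. Per the labels' protocols, libraries came from 500 ng of total RNA with a directional kit and adaptors carrying molecular identifiers. Per the submitters' processing notes, the build was GRCm38 (mm10) and the tools were DESeq2, featureCounts, UMI-tools and bcl2fastq 2.20.0.422. The sources used here do not name the aligner, the strand setting or the treatment of reads with several placements. Total counts were 19879629 to 37166146 per library. The 95% intervals of log2 differences rest on edgeR's spread between libraries, and the limit for a count of 0 covers counting error only.

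The deposited counts of all 55401 genes were filtered by edgeR's default and fitted with edgeR 4.0.16 (quasi-likelihood, TMM factors, 3 group means) in R 4.3.3. P-values were adjusted over 18289 genes, with a threshold of 0.05. CPM used the TMM factors. Shares are percentages of all counts. Ratios used log2 of counts plus 0.5 and exact permutation tests. Symbols matched 55141 gene identifiers. Shared sequence was searched with blastn 2.17.0 and exact 50-base words in GENCODE vM21 transcripts. Alternatives were other scalings, no filter, robust dispersions, DESeq2 1.42.0, limma 3.58.1 (voom, and on the deposited log2 and TPM values, pseudocount 0.1), fits of the 2 groups compared, a replicate block and each library left out. Steps were tested on simulated data. Replicates differed beyond sampling noise, with a chi-square of 5.37 to 28.4 times its degrees of freedom in 18 pairs. All members were named. Of each nuclear list, the 3 smallest p-values per comparison were named. The members and lists were chosen with earlier results of these data known.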

Additional observations from a re-analysis of the deposited data

Results flagged for a closer look

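In 90 sets of 4 libraries, 7 values lay far from the other 3 of their group by Dixon's test at the 95% level, which chance alone gives in about 1 set of 20. mt-Co2 had 53.4 CPM in control replicate 4 against 83.2 to 88.9 CPM in the other controls. mt-Nd3 had 5.55 CPM in overexpression replicate 4 against 10.8 to 11.6. mt-Nd5 had 6401 CPM in overexpression replicate 3 against 5533 to 5629. mt-Tt, the threonine tRNA, had 0.305 CPM in overexpression replicate 1 against 0.666 to 0.680. mt-Ti had 11.3 CPM in knockdown replicate 4 against 7.98 to 8.33. All mitochondrial genes together took 5.94% of counts in overexpression replicate 3 against 5.16% to 5.28% in the other overexpression libraries. The log2 ratio of mt-Rnr2 to mt-Nd1 was -0.34 in overexpression replicate 4 against -0.18 to -0.16.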

How the results depend on the processing

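Under every alternative and with each library left out in turn, 0 of the tested mitochondrial genes passed in any comparison. With no filter, all-gene calls rose from 1 in each comparison to 20, 22 and 1 (overexpression against control, knockdown against control, overexpression against knockdown), and DESeq2 gave 38, 43 and 3. With a replicate block, 0 mitochondrial genes passed in each comparison and all-gene calls were 1, 0 and 2. As deviations from group means, same-numbered libraries correlated at -0.34 to 0.16 and differently numbered ones at -0.28 to 0.31. The labels do not say what a replicate number shares. These values cannot decide it, since each group mean rests on only 4 libraries. As shares of the deposited TPM, in the order control, overexpression and knockdown, all members took 10.6%, 10.9% and 11.7%, protein genes 8.77%, 9.02% and 9.60%, rRNAs 1.75%, 1.78% and 1.97%, and tRNAs 0.109%, 0.107% and 0.117%, since TPM divides by gene length. The tRNA median between knockdown and control ranged from -0.42 (without knockdown replicate 4) to 0.066 with libraries left out. The log2 ratio of mt-Rnr2 to mt-Nd1 ranged from -0.018 to 0.055 for overexpression against control and from -0.064 to 0.010 between the Ttr groups, and that of mt-Nd6 to mt-Cytb from -0.075 to 0.12 for knockdown against control, so these signs turned with single libraries. Between overexpression and control, 17 of 24 genes were lower in the reported fit, 10 with limma on TPM and 13 without scaling factors. The cause of these shifts was not tested. With 4 libraries a group, intervals for tRNAs reach past 1 on the log2 scale, and 13 tRNAs had counts too low to test.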
